A study of Mus musculus with 6 samples.

Results

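The 6 RNA-seq libraries of this series divide into 3 with very high hemoglobin transcripts and 3 with almost none, and the deposited labels cut across that division. The groups described here were chosen by a measured value, the FPKM (a level corrected for transcript length and for the number of mapped fragments) of *Hbb-bt*, an adult beta-globin gene, with a minimum of 1000. It selected 3 of the 6 libraries, namely those labelled bone 3, osteoblasts 2 and osteoblasts 3, called hemoglobin-rich below. The other 3, labelled bone 1, bone 2 and osteoblasts 1, are called hemoglobin-poor and not hemoglobin-free, because *Hbb-bt* was listed in each of them at an FPKM of 3.43 to 7.05. Every difference between the groups is a description without a test, since the same libraries were used to form them. Each library is named by its deposited label throughout.

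All libraries came from CC016/GeniUnc mice, an inbred Collaborative Cross strain, and the methods give 3 mice. Per the labels, the bone libraries hold cortical bone of the femur without marrow, and the osteoblast libraries hold cells grown from femoral marrow. Those bone marrow stromal cells (BMSCs) were kept for 8 days in osteogenic medium. It held ascorbic acid at 50 µg/ml and beta-glycerophosphate at 10 mM. It also held the synthetic glucocorticoid dexamethasone at 10 nM. No other treatment or genotype separates the labels, and ages and sexes are not given in the sources used here. Transcripts of 4 Y-linked genes were listed in all 6 libraries.

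Bone holds mineral-embedded osteocytes, surface osteoblasts and bone-resorbing osteoclasts, and the marrow beside it makes red cells, neutrophils, platelets and lymphocytes. Red cell precursors load themselves with alpha- and beta-globin, and neutrophil precursors fill granules with antimicrobial proteins such as those encoded by *Ngp*, *Camp* and *Ltf*. Adherent marrow cultures typically keep stromal cells and macrophages, while blood cell precursors that do not adhere are washed away with the medium. In bulk RNA, fewer cells of a type and less RNA per cell cannot be told apart.

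Depth, read from the ratio of coverage to FPKM, was 2.03 to 3.39 Gb of aligned bases a library. A count of 3 read pairs on a transcript of 1 kb then correspond to an FPKM of 0.133 to 0.221. Between 9833 and 11404 named genes reached an FPKM of 1 in the hemoglobin-poor libraries, and between 12548 and 12950 did in the hemoglobin-rich ones. Features without a gene name took 71.5% of the FPKM in bone 2 and 65.0% in osteoblasts 1, against 27.4% to 30.7% in the other 4 libraries, bone 1 among them. Their part in the differences between the groups was not tested, but the differences were also computed with bone 1 as the only hemoglobin-poor library.

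*Hbb-bt* had an FPKM of 34838 in bone 3, 34268 in osteoblasts 2 and 48650 in osteoblasts 3. It had an FPKM of 7.05 in bone 1, 3.58 in bone 2 and 3.43 in osteoblasts 1. No library lay between 7.05 and 34268, so a minimum of 100 or 10000 selects the same libraries. The feature that carries this name in the deposited tables (GRCm38, chr7:103812524-103833723, minus strand) spans both adult beta-globin genes, *Hbb-bt* and *Hbb-bs*, and cannot separate them.

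*S100a9*, which encodes a calcium-binding protein abundant in neutrophils, separated the libraries in the same way. Its FPKM was 4775 in bone 3, 7072 in osteoblasts 2 and 8033 in osteoblasts 3, against 0.922 in bone 1, 0.573 in osteoblasts 1 and a listed value of 0 in bone 2. *Lyz2*, the lysozyme gene of macrophages and granulocytes, was high in all 6 and lower in the hemoglobin-rich libraries. It had an FPKM of 1280 in bone 3, 1546 in osteoblasts 2 and 1596 in osteoblasts 3, and of 7332 in bone 1, 4330 in bone 2 and 3955 in osteoblasts 1. The *Lyz2* feature also holds *Lyz1*.

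*Ibsp* encodes bone sialoprotein, a matrix protein of mineralising osteoblasts. It was not confined to the bone label: its FPKM was 1278 in bone 1, 986 in bone 2 and 1004 in osteoblasts 1, but 43.1 in bone 3, 78.2 in osteoblasts 2 and 91.3 in osteoblasts 3. *Lhfp*, a gene of the Chr. 3 bone mineral density locus, had an FPKM of 49.5, 29.2 and 29.1 in bone 1, bone 2 and osteoblasts 1. In bone 3, osteoblasts 2 and osteoblasts 3 it had 6.21, 7.23 and 7.46. For the 4 genes other than *Hbb-bt*, whose separation the rule itself fixed, the hemoglobin-rich and hemoglobin-poor values did not overlap. This was common: of the 12112 genes compared below, 4498 had all hemoglobin-rich values above and 3893 all below. The 4 genes were also chosen with earlier results of these data known, so their separation is not support for the division.

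**Figure D1:**
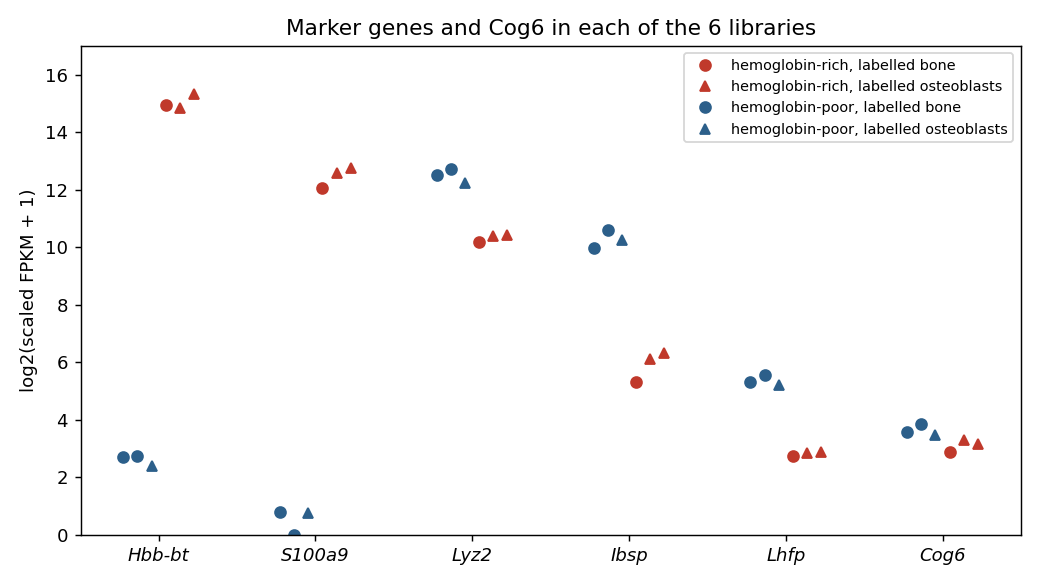
Level of the 5 marker genes and *Cog6* in each library, as log2 of the FPKM scaled to the 75th percentile plus 1. Each point is a library, with colour for the hemoglobin set and shape for the deposited label. The red points of *Hbb-bt* and *S100a9* lie far above the blue ones, those of *Lyz2*, *Ibsp* and *Lhfp* below, and those of *Cog6* close to them.

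The promoters of these 5 genes are shown because the genes stand for the 2 opposite patterns. RefSeq sequences on GRCm38.p6 cover 250 bases before to 50 bases after the annotated start, and 5 of 5 genes matched. The windows are chr7:103813874-103814173 (minus strand) for *Hbb-bt*, chr3:90695672-90695971 (minus) for *S100a9*, chr10:117282223-117282522 (minus) for *Lyz2*, chr5:104299037-104299336 (plus) for *Ibsp* and chr3:53041297-53041596 (plus) for *Lhfp*. Capitals mark matches on either strand to 6 motifs. The TATA box was searched as TATAAA and the CCAAT box by the letters of its name. The motif of GATA factors was searched as AGATAA. The CACC box of erythroid promoters was searched as CACACCC. The motif of C/EBP factors, which are active in granulocytes and macrophages, was searched as TTNNGNAA. The motif of RUNX factors, which act in blood and bone, was searched as ACCACA. No motif holds another, and in these windows no matches overlapped.
*Hbb-bt*: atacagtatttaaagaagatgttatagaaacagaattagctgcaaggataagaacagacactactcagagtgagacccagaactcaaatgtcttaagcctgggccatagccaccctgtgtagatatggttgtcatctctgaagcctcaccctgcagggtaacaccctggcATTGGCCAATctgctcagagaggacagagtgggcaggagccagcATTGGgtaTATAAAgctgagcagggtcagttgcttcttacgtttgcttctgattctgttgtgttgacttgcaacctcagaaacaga
*S100a9*: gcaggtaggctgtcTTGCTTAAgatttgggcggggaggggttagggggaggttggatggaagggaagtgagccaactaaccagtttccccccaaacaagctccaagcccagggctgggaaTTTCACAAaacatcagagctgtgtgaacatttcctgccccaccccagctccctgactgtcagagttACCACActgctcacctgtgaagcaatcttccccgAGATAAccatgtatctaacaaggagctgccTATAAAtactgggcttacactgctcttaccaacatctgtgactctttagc
*Lyz2*: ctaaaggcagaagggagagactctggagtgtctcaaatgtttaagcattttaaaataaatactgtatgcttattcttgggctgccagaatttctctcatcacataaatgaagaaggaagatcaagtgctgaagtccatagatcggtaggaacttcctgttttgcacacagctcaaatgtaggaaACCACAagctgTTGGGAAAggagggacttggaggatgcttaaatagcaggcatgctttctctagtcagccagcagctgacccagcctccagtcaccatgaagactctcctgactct
*Ibsp*: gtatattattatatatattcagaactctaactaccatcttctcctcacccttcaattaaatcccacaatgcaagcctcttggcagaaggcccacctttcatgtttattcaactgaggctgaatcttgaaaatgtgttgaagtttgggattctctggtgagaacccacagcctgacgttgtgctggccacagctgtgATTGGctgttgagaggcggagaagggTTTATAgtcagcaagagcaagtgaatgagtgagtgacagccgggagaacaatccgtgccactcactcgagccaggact
*Lhfp*: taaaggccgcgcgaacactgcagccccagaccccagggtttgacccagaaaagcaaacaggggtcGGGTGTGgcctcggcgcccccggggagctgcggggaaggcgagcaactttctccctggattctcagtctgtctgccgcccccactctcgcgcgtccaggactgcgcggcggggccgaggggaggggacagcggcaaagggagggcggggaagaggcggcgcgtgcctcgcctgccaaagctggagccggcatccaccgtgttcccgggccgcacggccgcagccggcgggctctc

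The *Hbb-bt* window holds 3 matches to the CCAAT box, of which 2 lie side by side in opposite directions, and a TATA box 28 bases before the start. *S100a9* holds 2 C/EBP matches, 1 GATA match and 1 RUNX match, and its 1 TATAAA match begins at the annotated start itself, not before it. *Lyz2* holds a RUNX and a C/EBP match 66 and 55 bases before the start. *Ibsp* holds a CCAAT box and a TATA box on the opposite strand, 54 and 28 bases before the start, and *Lhfp* holds a single CACC box 185 bases before it.

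Over all 32851 promoter windows, 13.6% held the TATA box, 37.4% the CCAAT box, 11.2% the GATA motif, 7.95% the CACC box, 40.7% the C/EBP motif and 16.8% the RUNX motif. The GATA motif was in 8.64% of the windows of genes higher in the hemoglobin-rich libraries by the criterion given next, in 5.17% of those of genes lower in them and in 6.24% of those of all genes compared. The RUNX motif was in 17.2%, 11.8% and 12.8% of the same windows. The C/EBP motif was in 33.9% of the windows of higher and 30.0% of those of lower genes, the CCAAT box in 37.9% and 34.8%, the CACC box in 8.94% and 8.45% and the TATA box in 8.45% and 7.87%. These matches are a description of letters, not of bound sites. Such windows were available for 1292 of the 2238 higher, 1381 of the 1909 lower and 8005 of the 12112 compared genes, some with several windows.

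Across the 12112 of 48733 named genes whose FPKM averaged 1 or more, levels were compared as log2(FPKM + 1) after scaling each library to its 75th percentile. A gene was counted where the mean difference was at least 1, which is 2-fold, and the 3 values of each group did not overlap. By this criterion 2238 genes (18.5%) were higher and 1909 (15.8%) lower in the hemoglobin-rich libraries. Of the compared genes, 4498 had all hemoglobin-rich values above, 3893 all below and 3721 overlapped. The median difference over all genes was 0.07. Scaling moved the balance: without scaling 3151 were higher and 1176 lower, and scaled to the sum over named genes 1518 were higher and 3400 lower, with median differences of 0.38 and -0.41. With bone 1 alone as the hemoglobin-poor library, 2176 were higher and 1967 lower.

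A difference of 8-fold or more without overlap was seen for 365 higher and 95 lower genes. Of the compared genes, 266 were listed at 0 in all 3 hemoglobin-poor libraries, 236 of them with an FPKM of at least 1 in each hemoglobin-rich one. A further 8 were listed at 0 in all 3 hemoglobin-rich libraries. Such genes passed the filter on low values through 1 group alone and had to differ. A mean FPKM under 1 in the hemoglobin-poor libraries was found for 1612 of the compared genes, and one under 1 in the hemoglobin-rich libraries for 420. The lists below are described with the number of their compared members of that kind, and a count over such members is fixed by the filter and not support for a difference.

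The labels were also compared as deposited. Since they cut across the 2 groups, and the bone label covers libraries as unlike as bone 1 and bone 3, it is not established that these comparisons set bone against osteoblasts. A gene was counted where the means differed at least 2-fold and the values did not overlap. Inside the hemoglobin-rich set, 126 genes (1.04%) were higher in bone 3 than in osteoblasts 2 and 3 and 128 (1.06%) lower. Inside the hemoglobin-poor set, 128 (1.06%) were higher in bone 1 and 2 than in osteoblasts 1 and 135 (1.11%) lower. These counts compare a single library with a pair, in which values overlap less easily, and at a pseudocount of 0.1 the sums over both directions were 674 and 789. Under limma, with the 3 bone and 3 osteoblast libraries as labelled, 0 genes (0%) passed an adjusted p of 0.05. At an unadjusted p under 0.05 there were 48, and the smallest adjusted p was 0.96.

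For *Hbb-bt* the osteoblasts minus bone difference was 4.06 ± 4.78 (SE) and for *Ibsp* -1.08 ± 1.76, each with a limma adjusted p of 0.96. *Lhfp* differed by -0.89 ± 0.98 between the labels, with the same adjusted p, and *Cog6* by -0.12 ± 0.31. Each label holds libraries of both groups. The labels do not say which mouse each library came from, and these p-values measure only the spread between the libraries.

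Libraries of the same hemoglobin group resembled each other across the 12112 genes, with Pearson correlations of 0.966 to 0.974, whether or not they carried the same label. Pairs from different groups reached 0.626 to 0.674 under the same label and 0.648 to 0.676 under different labels. These are correlations across genes within this series, which are not independent replicates.

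**Figure D2:**
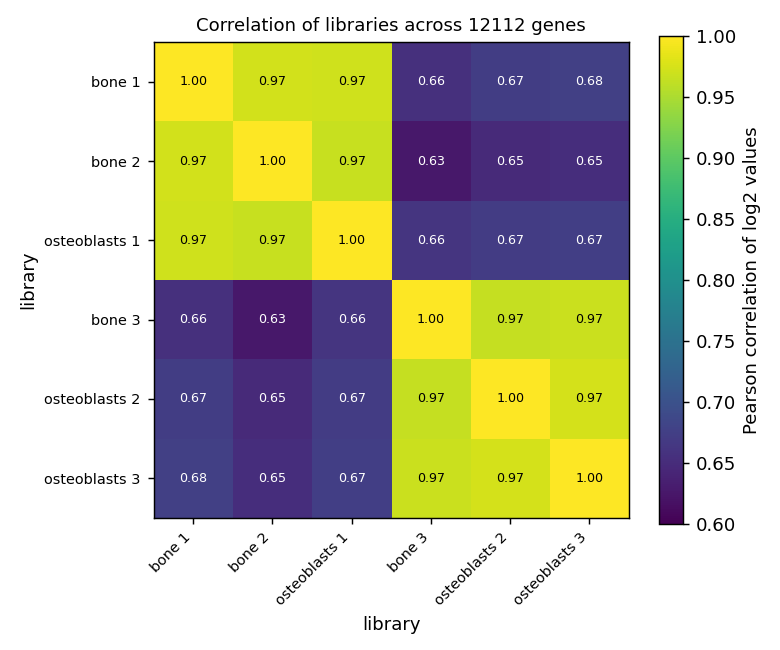
Pearson correlation between each pair of libraries across 12112 genes, on log2(scaled FPKM + 1), with the libraries ordered by group. The 3 hemoglobin-poor and the 3 hemoglobin-rich libraries form 2 blocks of 0.97, while correlations between the blocks are 0.63 to 0.68.

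Each label also holds both groups, so the difference can be taken inside a label. Within bone, bone 3 was at least 2-fold above the mean of bone 1 and 2 for 2399 genes (19.8%) and below it for 2305 (19.0%). Within osteoblasts, the mean of osteoblasts 2 and 3 was at least 2-fold above osteoblasts 1 for 2370 genes (19.6%) and below it for 1748 (14.4%). Higher in both labels were 1885 genes, 78.6% of the bone list and 79.5% of the osteoblast list. Lower in both were 1346, which is 58.4% and 77.0%, and 6 genes went opposite ways. The 2 comparisons share no library.

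*Hbb-bt* was higher by 12.22 on the log2 scale in bone 3 against bone 1 and 2, and by 12.72 in osteoblasts 2 and 3 against osteoblasts 1. *S100a9* was higher by 11.68 and 11.89. *Ibsp* differed by -4.96 and -4.06, *Lhfp* by -2.71 and -2.32 and *Lyz2* by -2.43 and -1.84. The *Hbb-bt* values are those the rule used. For the other 4 genes the groups did not overlap, which fixes the same direction inside both labels, so it is not further support.

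**Figure D3:**
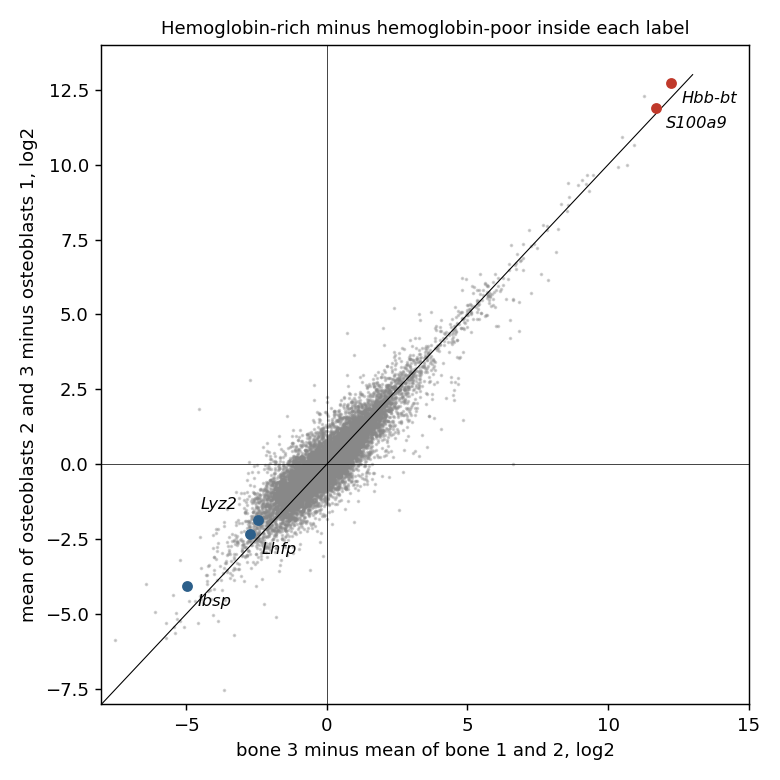
Hemoglobin-rich minus hemoglobin-poor difference of each of the 12112 genes inside the bone label (x axis) and inside the osteoblast label (y axis), on the log2 scale, with the line of equal differences. *Hbb-bt* and *S100a9* lie at the upper right and *Ibsp*, *Lhfp* and *Lyz2* at the lower left, close to the line.

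Erythroid genes were nearly all higher in the hemoglobin-rich libraries. Of 18 members of the erythroid list 14 were compared, and 13 were higher in the hemoglobin-rich libraries, with a median difference of 5.40. Over all genes the share was 18.5%. For 10 of the 14, with a mean FPKM under 1 in the hemoglobin-poor libraries, the filter fixed the direction. The groups were also formed on a globin gene of red cells, so this count is not support for a difference. The summed FPKM of the list was 2259 to 2448 in the hemoglobin-rich and 33.8 to 63.5 in the hemoglobin-poor libraries, and *Hemgn* and *Epb42* were listed at 0 in all 3 hemoglobin-poor ones. *Alas2*, the first enzyme of heme synthesis in red cells, had an FPKM of 750 in bone 3, 732 in osteoblasts 2 and 910 in osteoblasts 3, and of 0.208, 0.088 and 0.054 in bone 1, bone 2 and osteoblasts 1. *Slc4a1*, the red cell anion exchanger, had 714, 663 and 619 in the same hemoglobin-rich libraries and at most 0.0262 in the others. The exception was *Tfrc*, the transferrin receptor that many dividing cells use, which overlapped between the groups and differed by 0.27.

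The 3 features around the globin genes took 7.55% of the FPKM of named genes in bone 3, 7.62% in osteoblasts 2 and 11.6% in osteoblasts 3. In the hemoglobin-poor libraries they took at most 0.00447%. The feature named *Hba-x* (chr11:32276400-32297298) holds the adult alpha-globin genes, and the *Nprl3* feature spans that cluster on the other strand. The kit does not mark strand, so the *Nprl3* reads cannot be told apart from alpha-globin reads. *Nprl3* had an FPKM of 5649 in bone 3 against 9.83 in bone 1.

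Of 18 members of the neutrophil list 15 were compared, 12 of them with a mean FPKM under 1 in the hemoglobin-poor libraries. The 15 were higher in the hemoglobin-rich libraries, with differences of 4.06 to 11.95 and a median of 8.42. The filter fixed the direction of those 12, and 18.5% of all genes were higher. *Ngp* had an FPKM of 2301 in bone 3, 2193 in osteoblasts 2 and 2528 in osteoblasts 3, and of 0.222 in bone 1, 0.212 in osteoblasts 1 and 0 in bone 2. *Camp*, the cathelicidin gene, had 2159, 2217 and 2296 in the same hemoglobin-rich libraries, and 1.10 in bone 1 with 0 listed in bone 2 and osteoblasts 1. *Elane*, neutrophil elastase, was listed at 0 in all 3 hemoglobin-poor libraries and at 423, 515 and 429 in bone 3, osteoblasts 2 and osteoblasts 3. *Chil3* and *Mmp8* had the smallest differences of the list, at 4.09 and 4.06.

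The 10 genes most above in the hemoglobin-rich libraries, at a mean FPKM of at least 10, were *Hbb-bt*, *S100a9*, *Hba-x*, *Ngp*, *Camp*, *S100a8*, *Prg2*, *Ltf*, *Nprl3* and *Igha*. *Prg2* encodes the major basic protein of eosinophils and *Igha* the constant region of immunoglobulin A. *Prg2* had an FPKM of 1495 in bone 3, 1185 in osteoblasts 2 and 1082 in osteoblasts 3 and at most 0.109 in the others. *Igha* had 601, 908 and 894, against at most 0.07.

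Of 12 B cell genes 9 were compared, and the 8 that were higher in the hemoglobin-rich libraries all had a mean FPKM under 1 in the others. The same held for the 7 of 10 T and NK cell genes compared, so that their direction was fixed by the filter. Of 7 megakaryocyte genes 6 were compared and were higher, against 18.5% of all genes. The filter fixed the direction of 3 of them, with a mean FPKM under 1 in the hemoglobin-poor libraries. *Cd79b*, a subunit of the B cell receptor, had an FPKM of 50.7 in bone 3, 60.0 in osteoblasts 2 and 55.5 in osteoblasts 3, and was listed at 0 in the other 3. *Ppbp*, a platelet chemokine gene, had 162, 249 and 272 and was also listed at 0 elsewhere. *Ebf1*, which stromal cells express as well as B cells, overlapped between the groups and differed by -0.24. Among 8 compared progenitor genes, 3 with a mean FPKM under 1 in the hemoglobin-poor libraries, 5 were higher, led by *Myb* with a difference of 4.31, while *Ptprc*, the pan-leukocyte gene encoding CD45, differed by 0.01.

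Genes of cell division were higher as well. Of 14 compared genes 13 were higher in the hemoglobin-rich libraries, with a median difference of 2.73, against 18.5% of all genes. *Ube2c*, an enzyme that marks mitotic proteins for breakdown, had an FPKM of 119 in bone 3, 123 in osteoblasts 2 and 121 in osteoblasts 3, and of 6.53, 2.94 and 3.46 in bone 1, bone 2 and osteoblasts 1. *Ccnd1*, which encodes cyclin D1 of the G1 phase, was on no list and went the other way, at 5.50, 6.33 and 5.17 against 293, 166 and 150.

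Macrophage genes were on the opposite side from the other blood genes. Of 12 compared monocyte and macrophage genes 11 were lower in the hemoglobin-rich libraries, with a median difference of -2.41, against 15.8% of all genes. *C1qa*, a subunit of complement C1q, had an FPKM of 1156 in bone 1, 575 in bone 2 and 633 in osteoblasts 1, and of 176 in bone 3, 241 in osteoblasts 2 and 173 in osteoblasts 3. *Adgre1*, which encodes the macrophage marker F4/80, had 166, 90.5 and 87.3 against 15.8, 20.9 and 18.6. The macrophage genes were present in all 6 libraries, with a summed FPKM of 1748 to 2155 in the hemoglobin-rich and 5811 to 10480 in the hemoglobin-poor ones.

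*Marco* and *Msr1*, scavenger receptors of macrophages, were among the 10 genes most below in the hemoglobin-rich libraries. *Marco* had an FPKM of 341 in bone 1, 126 in bone 2 and 148 in osteoblasts 1, and of 0.28 in bone 3, 5.88 in osteoblasts 2 and 0.70 in osteoblasts 3. *Fcrls* differed by -5.76, *Prss23* by -5.62, *Timp1* by -5.58 and *Cd207* by -5.48. *Lox*, *Col8a1* and *Ccnd1* were also among them, with differences between -5.53 and -5.23.

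Stromal matrix genes were lower in the hemoglobin-rich libraries in 13 of 16 cases, with a median difference of -2.58, against 15.8% of all genes. *Lox*, an enzyme that crosslinks collagen and elastin, had an FPKM of 503 in bone 1, 304 in bone 2 and 287 in osteoblasts 1, and of 8.13, 7.07 and 12.2 in bone 3, osteoblasts 2 and osteoblasts 3. *Thbs1*, the matricellular protein thrombospondin 1, had 1067, 631 and 733 against 77.4, 77.4 and 90.2. *Col3a1* and *Fn1*, collagen III and fibronectin, differed by -2.47 and -2.40. *Dcn* and *Lum*, small leucine-rich proteoglycans, went the other way. *Dcn* had an FPKM of 81.5 in bone 3, 81.1 in osteoblasts 2 and 88.6 in osteoblasts 3, and of 15.9 in bone 1, 8.56 in bone 2 and 7.81 in osteoblasts 1.

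The contractile genes of smooth muscle and myofibroblasts were lower in 6 of 8 cases, against 15.8% of all genes. The filter fixed the direction of 2 of the 8, with a mean FPKM under 1 in the hemoglobin-rich libraries. *Acta2*, smooth muscle actin, had an FPKM of 351 in bone 1, 136 in bone 2 and 144 in osteoblasts 1, against 11.8 in bone 3, 8.03 in osteoblasts 2 and 6.79 in osteoblasts 3. *Des*, the muscle intermediate filament gene, was the exception at 61.0, 10.3 and 24.9 in bone 3, osteoblasts 2 and osteoblasts 3, against at most 2.39. Of 6 compared marrow niche genes 4 were lower, against the same share of all genes, among them *Kitl*, which encodes stem cell factor, at -1.91.

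Osteoblast genes were divided. Of 13 compared, 5 were lower in the hemoglobin-rich libraries, 1 was higher and 7 met neither condition, with a median of -0.87. The shares over all genes were 15.8% lower and 18.5% higher. *Col1a1*, the main collagen of bone, had an FPKM of 2711 in bone 1, 1662 in bone 2, 3332 in osteoblasts 1, 2234 in bone 3, 1499 in osteoblasts 2 and 1776 in osteoblasts 3. It was high in every library and differed by -0.84 on the scaled log2 scale. *Bglap2*, osteocalcin, whose feature also holds *Bglap*, was higher: its FPKM was 1959 in bone 3, 1889 in osteoblasts 2 and 1641 in osteoblasts 3, and 264 in bone 1, 383 in bone 2 and 513 in osteoblasts 1. *Ibsp*, *Mmp13*, *Tmem119*, *Alpl* and *Sp7* were lower, by -4.37 to -1.19. *Runx2*, the master transcription factor of osteoblasts, differed by 0.16.

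Among 5 compared osteocyte genes *Sost* was higher, *Dmp1* was lower and 3 met neither condition. These shares are near those over all genes, 18.5% higher and 15.8% lower. *Sost* alone of the 5 had a mean FPKM under 1 in the hemoglobin-poor libraries, so the filter fixed its direction. *Sost*, which encodes sclerostin made by mature osteocytes, had an FPKM of 18.8 in bone 3, 22.7 in osteoblasts 2 and 15.8 in osteoblasts 3, and of 0.176 in bone 1, 0.0661 in bone 2 and 0.198 in osteoblasts 1. *Dmp1*, a matrix phosphoprotein gene, had 24.2, 22.5 and 22.9 against 104, 50.0 and 127. Of the libraries labelled bone, bone 3 had clear *Sost* transcripts, while bone 1 and bone 2 lay under the FPKM that 3 read pairs on 1 kb would give.

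Osteoclast genes were mixed. Of 9 compared, *Acp5*, *Itgb3* and *Oscar* were higher and *Tnfrsf11a*, the receptor RANK, was lower, while 5 met neither condition. The shares over all genes were 18.5% higher and 15.8% lower, and the counts were not tested against them. Of the 9, 1 had a mean FPKM under 1 in the hemoglobin-poor libraries. *Acp5*, the tartrate-resistant acid phosphatase of osteoclasts, had an FPKM of 325 in bone 3, 342 in osteoblasts 2 and 342 in osteoblasts 3, and of 111 in bone 1, 14.9 in bone 2 and 49.0 in osteoblasts 1. *Ctsk*, cathepsin K, overlapped, at 116 to 149 against 29.5 to 137. The list median was 0.64, and 0.09 with bone 1 alone as the hemoglobin-poor library.

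Skeletal muscle genes were present in the hemoglobin-rich libraries under both labels. Of 14 list members 9 were compared. Each of the 9 had a mean FPKM under 1 in the hemoglobin-poor libraries, 5 of them with a listed value of 0 in all 3, so the filter fixed their direction. *Acta1*, the skeletal muscle actin, had an FPKM of 558 in bone 3, 109 in osteoblasts 2 and 246 in osteoblasts 3, and of at most 1.04 in the others. The summed level of the list, scaled to the 75th percentile, was 1463 in bone 3, 701 in osteoblasts 3 and 322 in osteoblasts 2, against 0.105 to 0.904. All 9 genes ranked bone 3, then osteoblasts 3, then osteoblasts 2.

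Cartilage genes showed another order. Of 10 list members 9 were compared, 7 of them with a mean FPKM under 1 in the hemoglobin-poor libraries. Of the 9, 8 were higher in the hemoglobin-rich libraries, with a median of 3.00, against 18.5% of all genes. The filter fixed the direction of the 7 with low means. By level, 7 of 9 ranked bone 3, then osteoblasts 2, then osteoblasts 3. *Col10a1*, the collagen of hypertrophic chondrocytes, had an FPKM of 186 in bone 3, 131 in osteoblasts 2 and 93.9 in osteoblasts 3, and of 12.2 in bone 1, 2.96 in bone 2 and 3.05 in osteoblasts 1. *Acan*, the cartilage proteoglycan aggrecan, had 87.0, 58.0 and 44.7 against at most 0.457. *Sox9*, a transcription factor of chondrocytes, differed by only 0.39. The difference between bone 3 and the osteoblast libraries was not tested, since bone 3 is 1 library.

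The 12 endothelial genes were higher, with a median of 2.42, against 18.5% of all genes. The filter fixed the direction of 10 of them, with a mean FPKM under 1 in the hemoglobin-poor libraries. *Pecam1*, the adhesion molecule CD31, had an FPKM of 15.5 in bone 3, 20.9 in osteoblasts 2 and 20.9 in osteoblasts 3, and of 1.92 in bone 1, 0.0871 in bone 2 and 0.526 in osteoblasts 1. Of 7 adipocyte genes 1 was higher (*Cfd*, adipsin) and 1 lower (*Lpl*, lipoprotein lipase), and 5 met neither condition. These shares are near those over all genes, 18.5% higher and 15.8% lower, and show nothing particular to adipocyte genes.

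**Figure D4:**
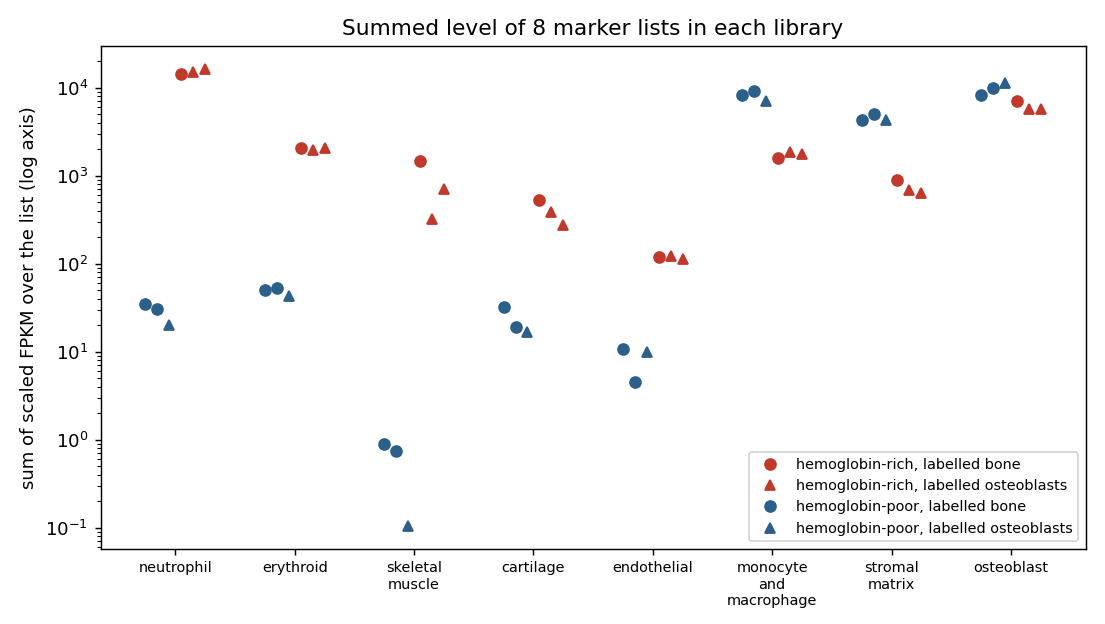
Summed FPKM of 8 marker lists in each library, scaled to the 75th percentile, on a log axis, with colour for the hemoglobin group and shape for the label. The hemoglobin-rich libraries lie above for blood, muscle, cartilage and endothelial lists and below for macrophage and stromal matrix lists, and the osteoblast list separates them least.

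Genes of the response to glucocorticoids were compared because the culture medium holds dexamethasone. Of 10 compared, *Fkbp5*, *Errfi1*, *Pdk4* and *Tsc22d3* were lower in the hemoglobin-rich libraries and *Cebpd* was higher. The other 5 met neither condition, and the list median was -0.94. The shares over all genes were 15.8% lower and 18.5% higher. *Fkbp5*, a co-chaperone of the glucocorticoid receptor, had an FPKM of 76.5 in bone 1, 38.8 in bone 2 and 49.7 in osteoblasts 1, and of 7.72 in bone 3, 9.22 in osteoblasts 2 and 9.59 in osteoblasts 3. The order of *Fkbp5* followed the hemoglobin groups and not the labels, and its cause was not tested. *Dusp1* and *Zbtb16* overlapped between the groups.

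*Cog6*, which encodes a subunit of the Golgi tethering complex beside *Lhfp*, had an FPKM of 13.8 in bone 1, 8.66 in bone 2 and 8.34 in osteoblasts 1, and of 7.07 in bone 3, 10.3 in osteoblasts 2 and 9.34 in osteoblasts 3. Its scaled log2 difference was -0.52, which is under the 2-fold limit, against -2.53 for *Lhfp*. After scaling, the hemoglobin-rich values of both genes lay all below the others, as for 3893 of the 12112 genes compared. *Gm2447* and *Gm20750*, the lncRNA genes of the locus, were listed at 0 in all 6 libraries.

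The genes most tightly linked to *Lhfp* and to *Cog6* in the bone co-expression network of the study, built from other mice, were described too. Repeated names in the network tables were counted once. Of 133 distinct names linked to *Lhfp*, 103 were compared, and 60 were lower and 4 higher in the hemoglobin-rich libraries, with a median of -1.26. Of 135 linked to *Cog6*, 87 were compared, and 39 were higher and 6 lower, with a median of 0.68. Over all genes 15.8% were lower and 18.5% higher. Of the *Cog6* list 30 compared members had a mean FPKM under 1 in the hemoglobin-poor libraries, against 4 of the *Lhfp* list. In the hemoglobin-rich libraries 3 members of the *Lhfp* list had such a mean, and 0 of the *Cog6* list. The filter fixed the direction of all these members, so the counts of both lists are in part set by it. *Srpx2*, a secreted matrix-associated protein, had an FPKM of 119 in bone 1, 66.0 in bone 2 and 74.5 in osteoblasts 1, and of 5.72, 8.26 and 6.32 in bone 3, osteoblasts 2 and osteoblasts 3. *Pygm*, the glycogen phosphorylase of muscle and a member of the *Cog6* list, had 76.8, 24.4 and 38.9 in the same hemoglobin-rich libraries against at most 0.158.

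**Figure D5:**
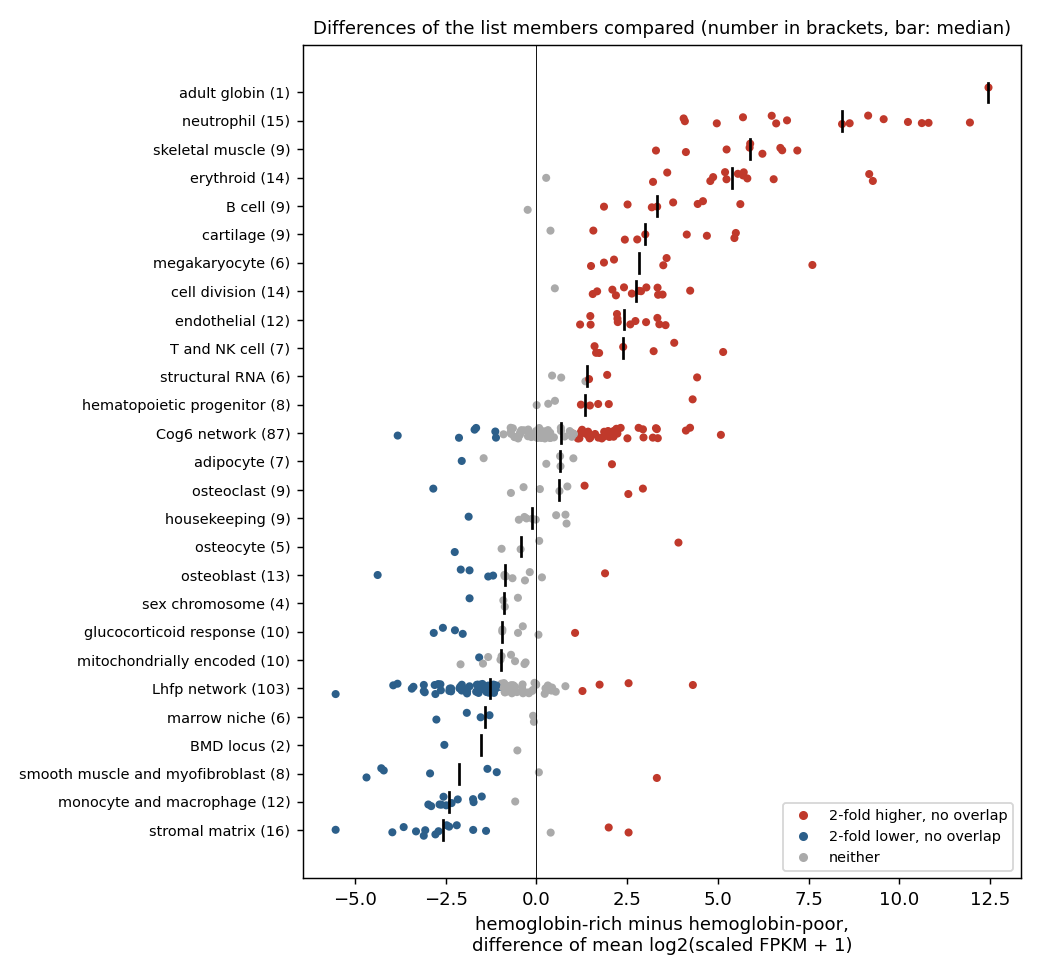
Difference of each compared list member between the hemoglobin-rich and hemoglobin-poor libraries on the scaled log2 scale, with 1 row per list, the number of members in brackets and a bar at the median. Medians run from 12.44 for the beta-globin feature to -2.58 for stromal matrix genes, and single genes such as *Dcn*, *Bglap2*, *Sost* and *Des* lie away from their lists.

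Several genes missing from these counts sit in features without a name. Of 291 list members outside the networks, 58 had no feature of their name, and 25 of them could be placed on a feature that holds a single coding gene. Of these 25, 11 were higher, 9 lower and 5 neither, against 18.5% higher and 15.8% lower over all genes compared. *Trem2*, a lipid receptor of macrophages, had an FPKM of 165 in bone 1, 83.9 in bone 2 and 92.1 in osteoblasts 1, and of 7.29, 8.22 and 5.69 in bone 3, osteoblasts 2 and osteoblasts 3. *Ccr2*, the chemokine receptor of circulating monocytes, went the other way from the macrophage list, at 2.90, 6.53 and 7.11 in those hemoglobin-rich libraries and at most 0.282 in the others. *Mylpf*, a muscle myosin light chain gene, was at 179, 51.7 and 97.6 against at most 0.239, and *Cxcl12*, the chemokine of marrow stroma, overlapped, at 203 to 266 against 86.7 to 320.

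Reference and structural transcripts were mixed. Of 9 housekeeping genes 1 was lower, namely *Hprt*, and their median was -0.11, which became 0.20 without scaling. *B2m*, a subunit of MHC class I, had an FPKM of 405 to 561 in the hemoglobin-rich and of 350 to 648 in the hemoglobin-poor libraries. Of 10 mitochondrially encoded genes *mt-Nd5* alone met the conditions for a lower level, and the median was -0.97. Their summed scaled level was 2663 in bone 1 and 4138 in bone 2 against 875 in bone 3, but 1120 in osteoblasts 1 against 1180 in osteoblasts 2 and 1633 in osteoblasts 3, so the direction differed between the labels. Of 6 structural RNAs, *Rn7sk*, *Rnu1b1* and *Terc* were higher, and *Rn7sk* reached 75341 to 93517 against 13042 to 25451. Of the 4 Y-linked genes compared, *Ddx3y* was lower. With 18.5% higher and 15.8% lower over all genes, 1 call in a list this short shows nothing particular to it.

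A few genes differed between the labels inside a hemoglobin group. Each such comparison sets a single library against a pair, so the label cannot be told apart from that library. In the hemoglobin-rich libraries *Mb*, the myoglobin gene, had an FPKM of 124 in bone 3 against 11.2 in osteoblasts 2 and 51.7 in osteoblasts 3. *Hspb1*, a small heat shock protein gene, had 39.7 in bone 3 against 5.12 and 5.60 there, and 56.9, 26.3 and 26.8 in bone 1, bone 2 and osteoblasts 1. *Ear1*, an eosinophil ribonuclease, was lower in bone 3, at 3.55 against 21.9 and 36.9. *Cebpa*, the C/EBPalpha gene, was named in both groups and in opposite directions: it had an FPKM of 1.76 in bone 3, 22.9 in osteoblasts 2 and 19.3 in osteoblasts 3, but 79.7 in bone 1, 35.2 in bone 2 and 3.56 in osteoblasts 1. In the hemoglobin-poor libraries *Rpl14*, a ribosomal protein gene, had 107 in bone 1 and 47.2 in bone 2 against 13.9 in osteoblasts 1, and *Polr2a*, the largest RNA polymerase II subunit, had 8.24 and 3.01 against 19.2.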

How the data were processed

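Total RNA of 3 libraries labelled bone and 3 labelled osteoblasts was sequenced. The authors made TruSeq RNA v2 libraries, mapped the 75 bp read pairs by HISAT2 2.0.5 onto GRCm38 (the submitters' processing notes also name SAMtools 1.7) and estimated expression with StringTie 1.3.3. The authors deposited, for each feature, its FPKM, its TPM and its coverage, without read counts, so no counting intervals can be given. Features of one name were summed. The members and gene lists were chosen with earlier results of these data known. FPKM of genes with a mean of at least 1 were scaled to the 75th percentile and compared as log2(FPKM + 1) in Python 3.11.15 with pandas 2.3.3. The labels, the only tested comparison, went through limma 3.58.1 under R 4.3.3 (eBayes with a trend, Benjamini-Hochberg adjustment, threshold 0.05). The code was checked on simulated data without a division of the libraries, which cannot show whether label differences could be found here. Named genes were the 5 markers, the locus genes, the most expressed and exceptional list members, and the 10 largest differences each way and 5 largest between labels inside each group at a mean FPKM of at least 10; others, such as *Sost*, were picked as list members after their values were seen. Of the genes compared, 578 have features holding more than 1 coding RefSeq gene. Alternatives were another pseudocount, filter, scaling or unit, a stricter difference, other *Hbb-bt* minimums, a replicate block and leaving out each library. A few genes that the naming rule selects are not reported here.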

Additional observations from a re-analysis of the deposited data

Results flagged for a closer look

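Unnamed features lie outside the comparison of named genes, and several were far higher in bone 2, most of these also in osteoblasts 1, than in any hemoglobin-rich library. The 4 with the highest FPKM are given here. The feature at chr17:39844630-39875258, which spans the RefSeq gene *Rn18s-rs5*, an 18S rRNA-related sequence, had an FPKM of 156149 in bone 2 and 144377 in osteoblasts 1, but 233 in bone 1, 276 in bone 3, 243 in osteoblasts 2 and 367 in osteoblasts 3. The feature at chr17:70963624-70963895 had an FPKM of 78381 in bone 2 and 61087 in osteoblasts 1 against at most 200 in the other 4 libraries, and that at chr3:5806629-5860816 had 49651 and 30434 against at most 123. The feature at chr16:17222320-17278378 had an FPKM of 40262 in bone 2 and was listed at 0 in the other 5. Among the 200 unnamed features with the highest FPKM, 40 were over 10 times higher in bone 2 and osteoblasts 1 than in each other library. Their part in the division of the libraries was not tested.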

How the results depend on the processing

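The count of genes called between labels stayed at 0 under every alternative run, with 17 to 1048 genes at an unadjusted p under 0.05; the highest were 1048 without bone 3 and 614 without osteoblasts 1. The replicate block also gave 0, with 67 at an unadjusted p under 0.05. Same-numbered libraries deviated from their label means with correlations of 0.84, -0.78 and 0.84 for replicates 1, 2 and 3, so the numbers were not taken to pair the libraries. The count of lower genes was 1176 without scaling and 3400 when scaled to the sum over named genes. A mean FPKM of at least 5 left 1164 higher genes, and a difference of 2 left 824 higher and 420 lower. Without bone 1, the count between labels inside the hemoglobin-poor set was 433 against 263. Leaving out each library gave 2093 to 2438 higher and 1798 to 2032 lower genes. The housekeeping median turned to 0.20 without scaling and ran from -0.20 to 7.29e-05 when each library was left out, positive without bone 3, the adipocyte median to -0.30 with bone 1 alone, and the median over all genes to -0.41 scaled to the sum and -0.037 under quantile normalization. The other 528 of 533 values did not reverse. Beside lists and single genes, the 533 include the median over all genes and the counts between labels inside each group. Such counts cannot reverse. In size, 382 of the 533 stayed within the set limits, 146 moved beyond them and 5 reversed. For differences of lists and single genes the limit was the spread between libraries inside the groups, and the median over all genes had none. The direction was fixed by the rule for *Hbb-bt* and by the filter for genes near 0 in 1 group. The use of bone 1 alone and the removal of features with more than 1 coding gene were chosen after seeing the data. Without read counts, values near an FPKM of 0.2 cannot be given an error.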
